A study of Mus musculus with 8 samples.

Results

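The response of the mouse dorsal hippocampus to spatial object training was described here in animals that carried a knockdown vector against Acss2, in 4 of the 8 libraries of the study. The members were chosen by their labels and column names: KD.249 and KD.251 were from trained mice and KD.253 and KD.255 from mice left in the home cage. All mice were male C57BL/6J, 10 to 12 weeks old by the labels, and had virus of type AAV2/9 placed in the dorsal hippocampus. The knockdown vector carried a short hairpin RNA against ACSS2 under the U6 promoter, together with EGFP under the CMV promoter, so neither promoter restricted it to neurons. The control vector carried EGFP alone, with no hairpin. After 3 weeks, trained mice met 3 different objects in an arena in 3 trials of 6 min, and tissue was taken 30 min after training. The other 4 libraries came from mice with the control vector, eGFP.254 and eGFP.268 from the home cage and eGFP.250 and eGFP.266 after training. Nothing in the labels ties a library to 1 mouse or to a pool of mice, and p-values measure only the spread between these libraries, part of which may be technical.

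ACSS2 joins acetate to coenzyme A, and the acetyl-CoA formed can serve histone acetyltransferases in the nucleus. When neurons fire, calcium entry activates kinases that phosphorylate the transcription factors CREB and SRF's partners. These switch on immediate early genes within minutes without new protein synthesis. Some immediate early genes, such as Fos, Egr1 and Nr4a1, encode further transcription factors, while others, such as Arc and Homer1, encode proteins that act at the synapse. In the hippocampus their RNA is widely used as a sign of recent activity in an unfamiliar place.

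Promoters of 4 of these transcription factor genes are printed because their training responses are described below. Each is the 250 bases before 1 RefSeq start of the gene (GRCm38.p6), read in the direction of the gene, and is annotated as upstream sequence. The start chosen was that of a transcript ranked as principal in GENCODE, except for Fosb, whose only RefSeq start differs from it. The windows of Egr2 and Nr4a1 lie inside the gene spans of GENCODE, which begin at 67535475 and 101254269. Capitals mark TGACG, the core of the CREB binding site, or its reverse complement CGTCA, and the CArG box bound by SRF. Positions are counted from the start, the base before it being -1.
Fos: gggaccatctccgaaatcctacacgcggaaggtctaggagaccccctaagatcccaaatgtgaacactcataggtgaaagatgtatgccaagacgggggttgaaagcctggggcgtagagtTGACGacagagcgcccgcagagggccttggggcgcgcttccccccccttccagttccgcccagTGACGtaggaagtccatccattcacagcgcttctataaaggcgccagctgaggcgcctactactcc
Fosb: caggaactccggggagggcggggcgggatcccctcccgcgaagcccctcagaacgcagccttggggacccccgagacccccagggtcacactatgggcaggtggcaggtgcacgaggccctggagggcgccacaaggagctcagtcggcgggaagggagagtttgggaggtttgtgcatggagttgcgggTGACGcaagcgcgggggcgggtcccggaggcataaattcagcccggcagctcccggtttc
Egr2: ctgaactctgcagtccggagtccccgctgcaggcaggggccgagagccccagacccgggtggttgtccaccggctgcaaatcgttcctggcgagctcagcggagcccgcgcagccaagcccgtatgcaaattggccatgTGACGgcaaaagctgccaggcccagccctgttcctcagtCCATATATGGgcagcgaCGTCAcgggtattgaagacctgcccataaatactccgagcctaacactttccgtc
Nr4a1: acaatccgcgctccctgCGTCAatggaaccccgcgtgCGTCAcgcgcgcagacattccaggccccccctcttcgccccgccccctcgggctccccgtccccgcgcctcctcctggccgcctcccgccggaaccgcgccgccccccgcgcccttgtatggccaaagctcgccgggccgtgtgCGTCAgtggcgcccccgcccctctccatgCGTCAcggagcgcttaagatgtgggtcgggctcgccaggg
The Fos window (chr12:85473640-85473889, plus strand) held TGACG beginning at -129 and -66. The Fosb window (chr7:19310046-19310295, minus strand) held it at -60. The Egr2 window (chr10:67537619-67537868, plus strand) held TGACG at -111, its reverse complement at -55 and a CArG box at -72. The Nr4a1 window (chr15:101266596-101266845, plus strand) held the reverse complement at -233, -213, -69 and -40. On either strand TGACG was found in 17.8% of all 32851 windows of that length, the longer palindrome TGACGTCA, which contains it, in 1.55% and the CArG box in 1.47%. By gene, TGACG was found in 15 of the 20 immediate early transcription factor genes with a window (75.0%). It was found in 9 of 17 other activity-regulated genes, called effectors below (52.9%), against 19.8% of all 27025 genes. A match describes the letters only. Sequence beyond these 250 bases was not searched, so a window without a CArG box does not mean that the gene has none.

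Depth differed widely between the knockdown libraries. Reads in genes numbered 8541894 in KD.249 and 6537749 in KD.253, but 1484318 in KD.251 and 272456 in KD.255, and a single read was worth 2.88 and 15.6 normalized read counts in the last pair. A count of 0 in KD.255 allowed up to 46.7 normalized counts (3 reads), and 823 of the 12681 tested genes had no read there. Intervals and such floors cover counting error only, at a level of 95% for exact Poisson intervals. KD.249 and KD.253 will be called the deep pair and KD.251 and KD.255 the shallow pair; these pairs share depth and no label ties them. KD.251 also stood apart in the targeted gene. Acss2 (chromosome 2, 155517948 to 155585724, plus strand, GRCm38) stood at 25.0 in KD.253 and 15.6 in KD.255, which was 1 read, and at 25.6 in KD.249 and 57.7 in KD.251 (interval 35.2 to 89.1). The 4 control-vector libraries ranged from 58.2 to 87.4. The knockdown mean was 31.0 ± 18.4 and the control mean 73.8 ± 13.4 (SD, n = 4 each), with p = 0.0286 in an exact two-sided permutation test, the smallest it can give, and 0.0571 without any 1 control library. The library labelled KD.251 thus overlapped the lowest control library within counting error. Whether it carried an effective knockdown cannot be told from these values, and it is 1 of the 2 trained knockdown libraries in every comparison below. Hippocampal identity was present in all 4 knockdown libraries. The summed level of 19 pyramidal neuron markers ranged from 5142 to 7252 and that of 14 dentate granule neuron markers from 2986 to 5943. Blood was not assessed, since the 4 haemoglobin genes of its list had 0 reads in all 8 libraries.

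Training with the knockdown vector was the main comparison. With limma on log2(normalized read count + 1), 0 of 12681 genes passed a Benjamini-Hochberg adjusted p of 0.05, and the smallest adjusted p was 0.802. At an unadjusted p under 0.05 there were 568 genes by limma (4.48%), 288 by edgeR (2.27%) and 161 by DESeq2 (1.27%), and edgeR and DESeq2 also passed 0 genes. With 2 libraries against 2, an exact permutation test of a single gene cannot go below p = 0.333. Leaving out KD.253 brought limma's count to 1242 genes, of which 745 had 0 reads in KD.255, then the only home-cage library; edgeR passed 0 genes in that setting. The values below are therefore descriptions of these libraries, in which no gene passed. As a yardstick, both trained libraries lay above both home-cage libraries in 2083 tested genes (16.4%) and below them in 1777 (14.0%). The median log2 difference over all tested genes was 0.04, 54.1% of genes stood above 0, and the median standard error was 0.33. Lack of overlap refers to the values and takes no account of counting error. The limma fit gave all libraries equal weight. For a gene with few reads in KD.255, its standard error and p-value can therefore understate the counting error of that library.

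Among immediate early transcription factors, Egr3 had higher values in both trained knockdown libraries, while those of Fos, Egr1, Egr2 and Nr4a1 overlapped between the groups. Egr3, a zinc finger factor induced by synaptic activity (chromosome 14, 70077203 to 70082614, plus strand), had normalized read counts of 594 in KD.253 and 435 in KD.255 (28 reads) in the home cage, and of 895 in KD.249 and 975 in KD.251 after training. Both trained libraries lay above both home-cage ones, and the log2 difference was 0.88 (SE 0.21, limma unadjusted p = 0.00234, adjusted p = 0.802, 2 libraries in each group). It passed limma only without KD.253 (1.10, adjusted p = 0.0199). Fosb, a partner of Jun proteins in the AP-1 factor, stood at 76.5 and 77.8 (5 reads) in the home cage and at 178 and 98.1 after training. The groups did not overlap (0.77, SE 0.33), although the interval of KD.255, 25.3 to 182, covered both trained values. Nr4a2, an orphan nuclear receptor, was the third member of this list with both trained libraries higher, at 364 and 420 in the home cage against 429 and 557 after training (0.32, SE 0.23).

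Fos, the AP-1 subunit most used as an activity marker (chromosome 12, 85473890 to 85477273, plus strand), stood at 87.7 and 140 (9 reads) in the home cage and at 139 and 107 after training. The groups overlapped, with a log2 difference of 0.13 (SE 0.43). In the deep pair alone Fos was 0.66 higher after training. Egr2, a zinc finger factor, stood at 68.5 and 109 (7 reads) in the home cage and at 164 and 51.9 after training, so its trained libraries lay on either side of both home-cage ones (0.10, SE 0.54). It differed by 1.24 in the deep pair and by -1.05 in the shallow pair. Egr1, a zinc finger factor with the most reads of the list, stood at 2561 and 1742 (112 reads) in the home cage and at 2835 and 2019 after training. Within each pair of like depth it was slightly higher after training (0.15 and 0.21), but the groups overlapped (0.18, SE 0.34).

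Nr4a1, an orphan nuclear receptor, stood at 504 and 358 without training and at 448 and 369 with it, a difference of -0.06 (SE 0.34). Its relative Nr4a3 stood at 1817 and 1182 against 2468 and 1451 (0.37, SE 0.30). Npas4, a neuron-specific factor induced by calcium entry, stood at 117 and 124 (8 reads) against 118 and 86.5 (-0.25, SE 0.28). None of these 3 separated the groups. The AP-1 subunits Junb and Jun had differences of 0.52 (SE 0.36) and 0.17 (SE 0.34), Egr4 of 0.41 (SE 0.59) and Btg2, an antiproliferative early gene, of 0.62 (SE 0.67), and all 4 overlapped between groups. Srf, which encodes the factor that binds the CArG box, stood at 250.4 and 248.8 without training and at 237 and 150 with it. Both of its trained libraries were lower (-0.40, SE 0.27).

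Over the whole list, 23 of 25 immediate early transcription factors were tested, and Fosl1 and Ier2 had too few reads. The log2 difference was above 0 in 17 of 23 and 0 passed. Both trained libraries were higher in 3 members and lower in 2, against 16.4% and 14.0% of all tested genes. The median difference was 0.18, against 0.04 over all tested genes. It was 0.24 in the deep pair and 0.21 in the shallow pair. It depended on single libraries: it was -0.16 without KD.249, -0.02 without KD.255 and 0.52 without KD.251.

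**Figure D1:**
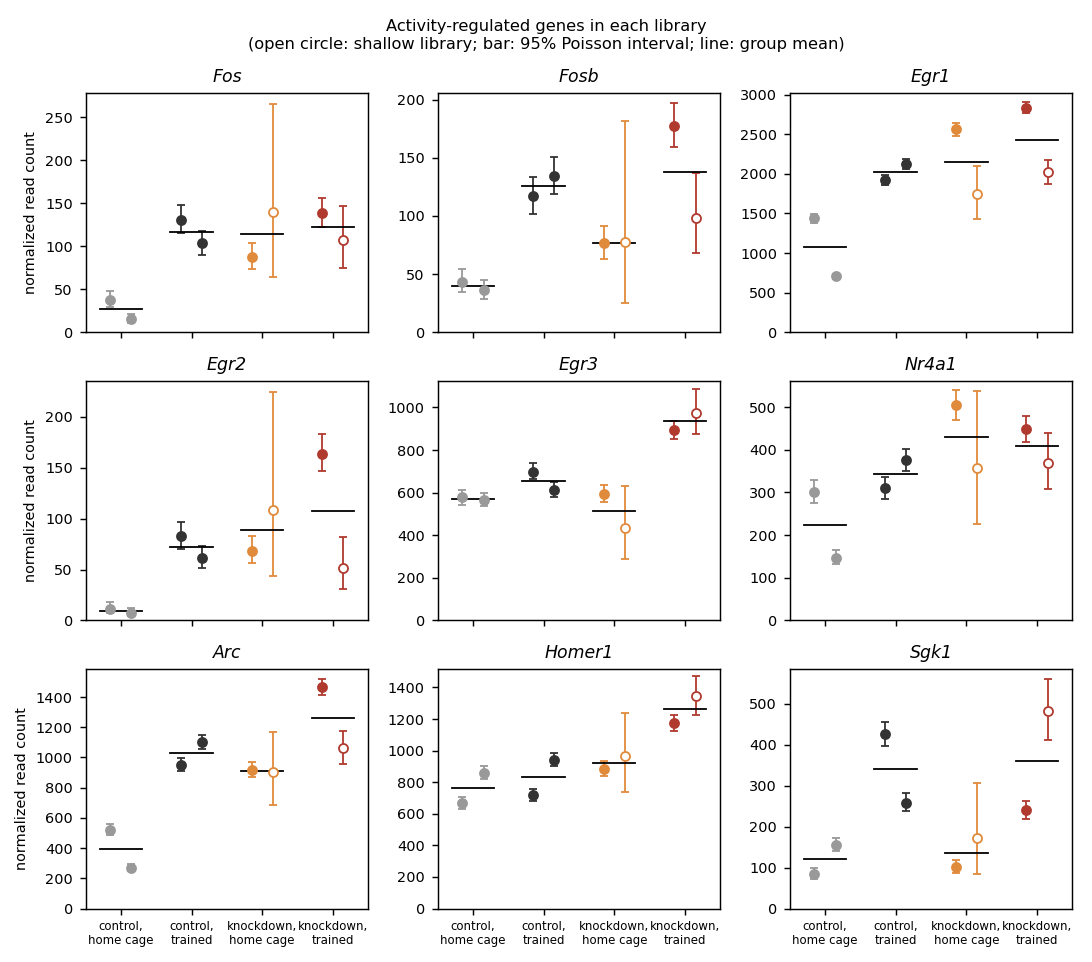
Normalized read counts (y axis, linear from 0) of 9 activity-regulated genes in each of the 8 libraries, by vector and training (x axis); bars are 95% Poisson intervals, lines are group means and open circles are the shallow libraries. Egr3, Homer1, Arc and Sgk1 lay higher in both trained knockdown libraries than in both home-cage ones, while Fos, Egr1, Egr2 and Nr4a1 overlapped.

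The same genes were set beside their control-vector values, and the difference between the vectors was tested directly. With the control vector Fos stood at 37.8 and 15.5 in the home cage and at 131 and 103 after training, a log2 difference of 2.21 (SE 0.43). The trained levels of Fos were thus close in both vectors, at 103 to 139 in the 4 trained libraries, while the home-cage levels did not overlap, at 15.5 and 37.8 with the control vector against 87.7 and 140 with the knockdown vector. Home-cage levels of Egr2 did not overlap either, at 11.6 and 7.54 with the control vector against 68.5 and 109 with the knockdown vector. The share of all tested genes whose home-cage levels did not overlap between vectors was not counted, so these 2 genes have no yardstick. Its trained levels were 82.7 and 61.7 with the control vector and spread more widely, at 164 and 51.9, with the knockdown vector. The difference of the training responses, knockdown minus control, was -2.71 for Egr2 (SE 0.77, limma unadjusted p = 0.00632, adjusted p = 1.00) and -2.08 for Fos (SE 0.61, unadjusted p = 0.00784, adjusted p = 1.00). It was -0.99 for Arc (SE 0.43), -0.86 for Fosb (SE 0.47), -0.82 for Egr1 (SE 0.48) and -0.75 for Nr4a1 (SE 0.48). Egr3 went the other way, at 0.68 (SE 0.30, unadjusted p = 0.0479, adjusted p = 1.00).

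None of these differences passed. Over all tested genes 0 passed limma for the difference of responses, with 112 at an unadjusted p under 0.05 (0.883%), 98 by edgeR (0.773%) and 52 by DESeq2 (0.410%), where 0 also passed. The difference between the vectors in the home-cage level rests on few reads in KD.255 (9 for Fos and 7 for Egr2), but KD.253 held 133 and 104 reads. In control-vector mice the list's median was 0.62, with 22 of 23 members above 0 and 14 with both trained libraries higher, against 14.5% of all tested genes (14.3% had both lower, and 52.1% stood above 0). For training with that vector limma and edgeR passed 0 genes, with 181 (1.43%) and 423 (3.34%) at an unadjusted p under 0.05, and DESeq2 passed 4 (0.0315%), with 232 (1.83%) at an unadjusted p under 0.05. Among those 4 were Egr2 (DESeq2 adjusted p = 0.00165), Fos (0.0146) and Arc (0.0240). The other was Gh, the growth hormone gene, named after its values were seen, which had 1849 reads in eGFP.250 and 0 in the other control-vector libraries.

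**Figure D2:**
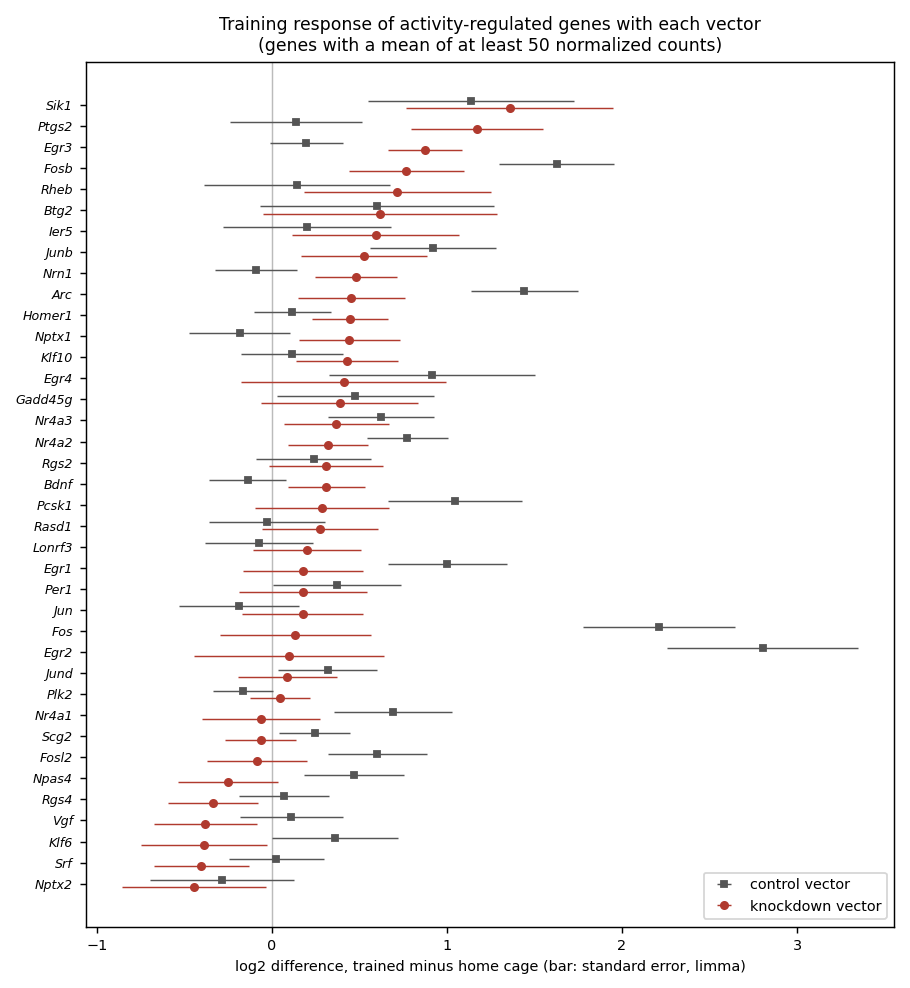
Log2 difference, trained minus home cage (x axis), for the 38 immediate early and effector genes averaging 50 or more normalized read counts (y axis), with the knockdown vector (circles) and the control vector (squares); bars are limma standard errors. Egr2 and Fos lie far apart between vectors (0.10 against 2.80 and 0.13 against 2.21), while Egr3 (0.88 against 0.20) and Ptgs2 (1.17 against 0.14) lie higher with the knockdown vector.

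Effectors are here further activity-regulated genes. Many but not all of their products act at the synapse or are secreted, and genes such as Crem and Baz1a are also in the list. Among the tested effectors, 12 of 25 had higher values in both trained libraries, against 16.4% of all tested genes. Homer1, a scaffold of metabotropic glutamate receptors, stood at 884 and 964 (62 reads) in the home cage and at 1174 and 1347 after training, with no overlap (0.45, SE 0.22). Both pairs of like depth gave a similar value (0.41 deep and 0.48 shallow). The counts are per gene, so the short activity-induced and the long isoform of Homer1 cannot be told apart. Arc, which regulates AMPA receptor endocytosis (chromosome 15, 74669083 to 74672570, minus strand), stood at 920 and 902 (58 reads) without training and at 1467 and 1062 with it. Both trained libraries were higher (0.45, SE 0.30), although the interval of KD.255, 685 to 1166, reached past 1062. Bdnf, a neurotrophin, stood at 279 and 264 (17 reads) against 334 and 340 (0.31, SE 0.22), again without overlap. Here the interval of KD.255, 154 to 423, covered both trained values.

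Ptgs2, the inducible cyclooxygenase, stood at 159 and 77.8 (5 reads) in the home cage and at 220 and 288 after training. Its difference of 1.17 (SE 0.38, unadjusted p = 0.0126) came mostly from the shallow pair (1.88, against 0.46 in the deep pair). Nrn1, a neurite-promoting membrane protein, stood at 1277 and 1446 against 1556 and 2305 (0.48, SE 0.23), and the pentraxin Nptx1, which clusters AMPA receptors, at 3767 and 2380 against 4215 and 3932 (0.44, SE 0.29). Both genes separated the groups. Its relative Nptx2 did not, at 118 and 248.8 (16 reads) against 171 and 92.3 (-0.44, SE 0.41), nor did the secretogranin Scg2, at 2160 and 2084 against 2331 and 1765 (-0.06, SE 0.20).

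Of 28 effectors in the list, 25 were tested. The difference was above 0 in 19, and both trained libraries were higher in 12 and lower in 1, against 16.4% and 14.0% of all tested genes; 0 passed. The median was 0.33, with 0.40 in the deep pair and 0.36 in the shallow pair, and it stayed between 0.27 and 0.40 in the 18 alternatives. The control-vector median was 0.14, with 17 of 25 above 0, against 52.1% of all tested genes. With that vector both trained libraries were higher in 9 and lower in 3, against 14.5% and 14.3% of all tested genes. The median of the genes' differences between vectors was 0.22, and 0 of 25 passed.

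Feedback and stress-hormone genes were the next tier. Dusp1 and Dusp6 encode phosphatases that switch off MAP kinases. Dusp1 stood at 58.7 and 46.7 (3 reads) in the home cage and at 39.9 and 34.6 after training (-0.48, SE 0.48), and Dusp6 at 207 and 295 against 212 and 263 (-0.07, SE 0.28). Errfi1, which blocks EGF receptor kinases, stood at 190 and 93.3 (6 reads) against 226 and 291 (0.94, SE 0.33, unadjusted p = 0.0189). Its difference was 0.25 in the deep pair and 1.63 in the shallow pair. Of 14 tested MAP kinase feedback genes 10 were above 0, against 54.1% of all tested genes. Both trained libraries were higher in 2 and lower in 1, against 16.4% and 14.0% of all tested genes. The median was 0.14, with 0.02 in the deep pair and 0.38 without KD.253.

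Sgk1, a kinase gene induced by glucocorticoids and mineralocorticoids (chromosome 10, 21882184 to 21999903, plus strand), was higher after training with both vectors. With the knockdown vector it stood at 102 and 171 (11 reads) in the home cage and at 241 and 482 (167 reads) after training, a difference of 1.36 (SE 0.44, unadjusted p = 0.013, adjusted p = 0.802). With the control vector it stood at 84.3 and 156 against 426 and 258, a difference of 1.52 (SE 0.44). The difference between vectors was -0.16 (SE 0.63), an imprecise estimate that does not show the responses to be alike. Klf9, a glucocorticoid receptor target, stood at 1352 and 1089 against 1481 and 1514 (0.30, SE 0.22). Of 17 tested glucocorticoid-responsive genes 15 were above 0, against 54.1% of all tested genes, and 0 passed. Both trained libraries were higher in 7 and lower in 0, against 16.4% and 14.0% of all tested genes. The median was 0.30 (0.43 deep, 0.36 shallow), and between 0.21 and 0.51 in the alternatives, against 0.41 with the control vector. Errfi1 and Per1 are each in another list as well.

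Genes of acetyl-CoA supply and of histone acetylation showed no common direction. Acss2 itself was higher after training in the shallow pair only, as given above (0.93, SE 0.47, with 0.03 in the deep pair). Acss1, its mitochondrial relative, stood at 107 and 62.2 (4 reads) against 111 and 156 (0.68, SE 0.34). Fasn, which spends acetyl-CoA on fatty acids, stood at 670 and 498 against 486 and 438 (-0.32, SE 0.21). Over 22 tested supply and use enzymes 13 were above 0 and the median was 0.10 (-0.09 in the deep pair, -0.03 without KD.255). Hdac2, a deacetylase linked to memory, stood at 268.2 and 264 (17 reads) against 351 and 410 (0.51, SE 0.21), with no overlap. The interval for 17 reads in KD.255, 154 to 423, covered both trained values. Ep300, an acetyltransferase and CREB coactivator, stood at 1074 and 933 against 847 and 764 (-0.32, SE 0.20), also with no overlap. Of 25 acetyltransferases, deacetylases and readers 12 were above 0, with a median of -0.08 (0.15 without KD.253). Both trained libraries were higher in 3 and lower in 5 of them, against 16.4% and 14.0% of all tested genes. The upstream kinases and cofactors of CREB and SRF had a median of 0.08 (-0.07 in the deep pair), with 18 of 31 above 0, and in them Camk2a, the abundant synaptic kinase, stood at 26547 and 25708 against 21034 and 25022 (-0.19, SE 0.21).

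The 10 genes with the highest limma statistic among those averaging 100 or more with no overlap (higher in 16.9% and lower in 12.3% of 6989 such genes) were Egr3, P4ha1, Ap1s2, Zfp189, Kansl1l, Rsrp1, Amigo2, Aig1, Sdhb and Kctd4. They were chosen on these values, which are given as a description. P4ha1, a collagen prolyl hydroxylase, stood at 260 and 218 (14 reads) in the home cage and at 472 and 421 after training (0.90, SE 0.22). Ap1s2, a subunit of a clathrin adaptor complex that sorts synaptic vesicle proteins, stood at 179 and 124 (8 reads) against 281 and 303 (0.97, SE 0.24). Zfp189, a zinc finger protein, stood at 75.1 and 77.8 (5 reads) against 141 and 202 (1.13, SE 0.29).

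Amigo2, an adhesion protein enriched in CA2 and CA3 pyramidal neurons, stood at 81.1 and 62.2 (4 reads) against 124 and 173 (1.03, SE 0.29). Sdhb, the iron-sulfur subunit of succinate dehydrogenase, stood at 105 and 93.3 against 183 and 199 (0.94, SE 0.27), and Rsrp1, a nuclear protein rich in arginine and serine, at 417 and 389 against 892 and 597 (0.86, SE 0.23). Kansl1l and Aig1 differed by 1.06 (SE 0.28) and 1.05 (SE 0.30). Kctd4 differed by 1.23 (SE 0.37), with 0.36 in the deep pair and 2.09 in the shallow pair. In control-vector mice 9 of these 10 genes were also above 0, against 52.1% of all tested genes. They lay between 0.20 for Egr3 and 0.66 for Amigo2, and Kctd4 stood at -0.18. The difference between vectors was largest for Kctd4 among them (1.41, SE 0.52, unadjusted p = 0.0234).

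The 10 lowest were Parm1, Fn1, Sox12, 9430020K01Rik, Olfml3, Mast1, Cdh13, Pdcd5, Dact3 and Sema6b. Parm1, a mucin-like membrane protein (chromosome 5, 91517615 to 91626894, plus strand), stood at 432 and 575 (37 reads) in the home cage and at 245 and 263 after training. Its difference of -0.97 (SE 0.21, unadjusted p = 0.00128, adjusted p = 0.802) was -0.82 in the deep pair and -1.13 in the shallow pair, and it passed limma only without KD.253 (-1.18, adjusted p = 0.0148). Fn1, fibronectin of the extracellular matrix, stood at 319 and 358 (23 reads) against 170 and 190, with almost the same value in both pairs (-0.90 and -0.91, SE 0.22 in the fit). Cdh13, a cadherin anchored by a lipid, stood at 186 and 264 (17 reads) against 112 and 104 (-1.03, SE 0.30), and Sox12, a SoxC transcription factor, at 158 and 248.8 against 88.0 and 89.4 (-1.15, SE 0.30).

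Olfml3, a secreted protein made by microglia, stood at 163 and 171 against 93.1 and 80.8 (-0.94, SE 0.27). Dact3, a Wnt pathway antagonist, stood at 452 and 327 against 157 and 213 (-1.07, SE 0.32), and Sema6b, a membrane semaphorin, at 299 and 264 against 141 and 156 (-0.92, SE 0.28). The kinase Mast1, the apoptosis-linked Pdcd5 and 9430020K01Rik had differences of -0.74 (SE 0.22), -1.03 (SE 0.30) and -0.74 (SE 0.21). In control-vector mice 9 of the 10 stood below 0, from -0.07 for 9430020K01Rik to -0.69 for Sema6b, and Cdh13 stood at 0.27. Of all tested genes 52.1% stood above 0 with that vector. Fn1 is also one of the meningeal fibroblast markers described below.

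**Figure D3:**
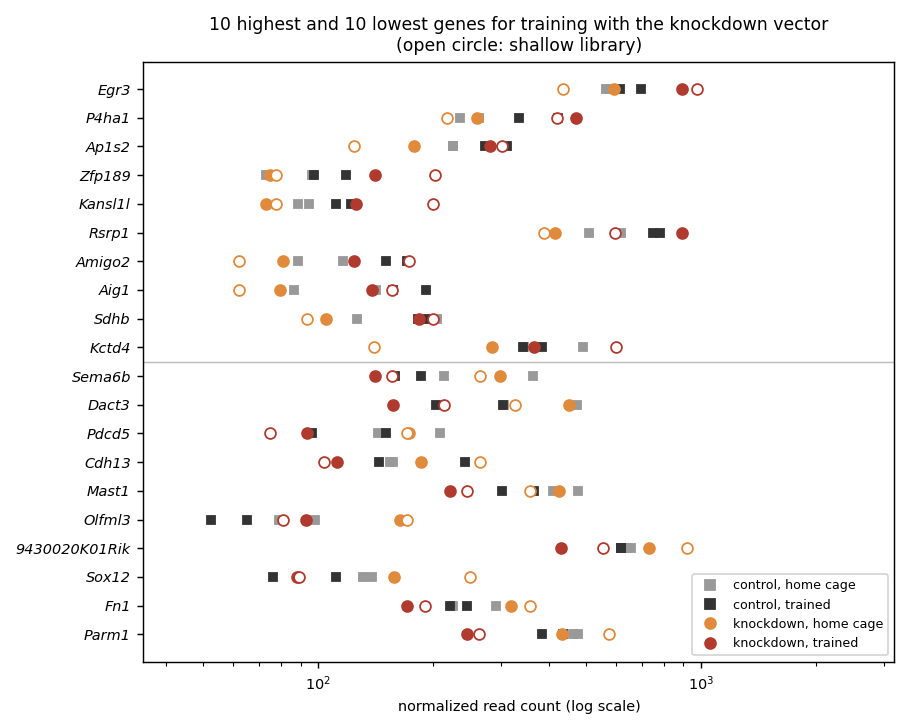
Normalized read count (x axis, log scale) of the 10 genes with the highest and the 10 with the lowest limma statistic for training with the knockdown vector (y axis), in every library; circles are knockdown and squares control libraries, and open circles are shallow. The genes were chosen for lack of overlap, so the separation of the knockdown circles is by construction; for Parm1 the trained knockdown libraries (245 and 263) also lay below all 4 control libraries.

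The genes whose response differed most between vectors, by the limma statistic and at an average of 100 or more, were Glis3, Sema5a, Rfx3, Pde8b and Stxbp6 on the higher side. Glis3, Rfx3 and Stxbp6 are also in the dentate granule marker list. Sema5a, a transmembrane semaphorin that limits granule cell synapses, stood at 1041 and 607 in the home cage and at 1014 and 1298 after training with the knockdown vector, and at 930 and 1029 against 463 and 670 with the control vector. Its difference between vectors was 1.34 (SE 0.42, unadjusted p = 0.0102). Its training difference with the knockdown vector was 0.53 (SE 0.29), and it stood at 0.14 without KD.255, 0.35 without KD.251 and 0.92 without KD.253. Glis3, a zinc finger factor, had a difference of 1.43 (SE 0.43), Stxbp6, a regulator of vesicle fusion, of 1.39 (SE 0.49), Rfx3, a factor for cilia genes, of 1.14 (SE 0.37) and Pde8b, a phosphodiesterase, of 0.90 (SE 0.31). On the lower side were Cit, Cdh13, Syne2, Utrn and Vwa5a. Cit, a kinase of cell division and neuronal scaffold, stood at 372 and 373 against 299 and 231 with the knockdown vector and at 301 and 302 against 438 and 403 with the control vector (-0.98, SE 0.29). Both vectors separated for Cit, in opposite directions. Cdh13, Syne2, Utrn and Vwa5a had differences of -1.30 (SE 0.42), -1.0 (SE 0.35), -1.11 (SE 0.42) and -1.18 (SE 0.45); 0 of the 10 passed.

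Markers of other cells of the tissue were read beside these genes. In bulk RNA, fewer cells of a type and less RNA per cell cannot be told apart. For the counts below, both trained libraries were lower in 14.0% and higher in 16.4% of all tested genes. Of all tested genes, 54.1% stood above 0. Endothelial and mural cell markers stood lower in 17 of 19 tested members after training, both trained libraries were lower in 10 and higher in 0, and the median was -0.39 (-0.41 deep, -0.47 shallow), or -0.21 for members averaging 100 or more. The summed level of this list was 4401 and 4324 in the home cage and 3940 and 3317 after training. In it Rgs5, a pericyte gene, stood at 433 and 607 against 370 and 415 (-0.39, SE 0.24), and Vtn, vitronectin of pericytes, at 132 and 156 against 85.5 and 89.4 (-0.71, SE 0.27). Both genes separated the groups. Meningeal and perivascular fibroblast markers had a median of -0.75 with 8 of 10 lower (-0.41 with a pseudocount of 16), and their summed level was 1266 and 1322 against 850 and 891. Microglia markers were lower in 16 of 21, both trained libraries were lower in 7 and higher in 1, and the median was -0.26 (-0.22 deep, -0.59 shallow). It was -0.60 without KD.249 and -0.57 without KD.255, and the summed level was 2129 in KD.251 against 2974 to 3328 in the other 3 knockdown libraries. Csf1r, the microglial growth factor receptor, stood at 353 and 358 against 284 and 213 (-0.53, SE 0.24). The control-vector medians were -0.15, 0.15 and -0.21. In none of the 3 lists did a gene pass, and their part in the differences of Fn1 and Olfml3 was not tested.

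Among neurons, all 14 dentate granule markers were above 0 with the knockdown vector, against 54.1% of all tested genes. Both trained libraries were higher in 6 and lower in 0, against 16.4% and 14.0% of all tested genes. The median was 0.51. The value rested on KD.255, whose summed level of 2986 was far under the 5221 of KD.253, 5943 of KD.249 and 5694 of KD.251. In the deep pair the median was 0.14 and in the shallow pair 1.03. Dsp, a desmosome protein of granule cells, stood at 630 and 218 (14 reads) against 1048 and 698 (1.20, SE 0.56), the granule cell factor Prox1 at 935 and 575 against 957 and 793 (0.25, SE 0.41) and the cation channel Trpc6 at 253.7 and 77.8 (5 reads) against 416 and 283 (1.28, SE 0.56). With the control vector the granule median was -0.50, with 1 of 14 above 0, against 52.1% of all tested genes. There both trained libraries were lower in 6 and higher in 0, against 14.3% and 14.5% of all tested genes. The summed level was lowest in eGFP.250 (3086), but eGFP.266 (4604) also lay below eGFP.268 (4837) and eGFP.254 (5910). The granule markers stood beside the differences of Glis3, Rfx3 and Stxbp6, and their part in those was not tested.

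Inhibitory neuron markers were lower in 16 of 21, with a median of -0.20 (0.10 without KD.249). Both trained libraries were lower in 5 and higher in 0, against 14.0% and 16.4% of all tested genes. The vesicular GABA transporter Slc32a1 stood at 130 and 202 (13 reads) against 83.4 and 83.7 (-0.95, SE 0.31, unadjusted p = 0.0133), and the peptide gene Sst at 1441 and 2691 against 1201 and 1125 (-0.76, SE 0.31). In the deep pair 20 of the 21 were lower and the median was -0.39, but in the shallow pair 12 were higher and it was 0.05. Pyramidal neuron markers had a median of -0.03 with 9 of 19 above 0, and markers of neighbouring thalamic and cortical neurons one of -0.13 with 4 of 12 above 0. Of the postsynaptic scaffolds, Shank1 stood at 3591 and 3453 against 2265 and 2435 (-0.58, SE 0.25), close to its -0.61 (SE 0.25) with the control vector, and the list's median was -0.07. Presynaptic genes and glutamate receptors had medians of -0.05 and 0.03. The medians of these last 5 lists each took the other sign when 1 of the knockdown libraries was left out.

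**Figure D4:**
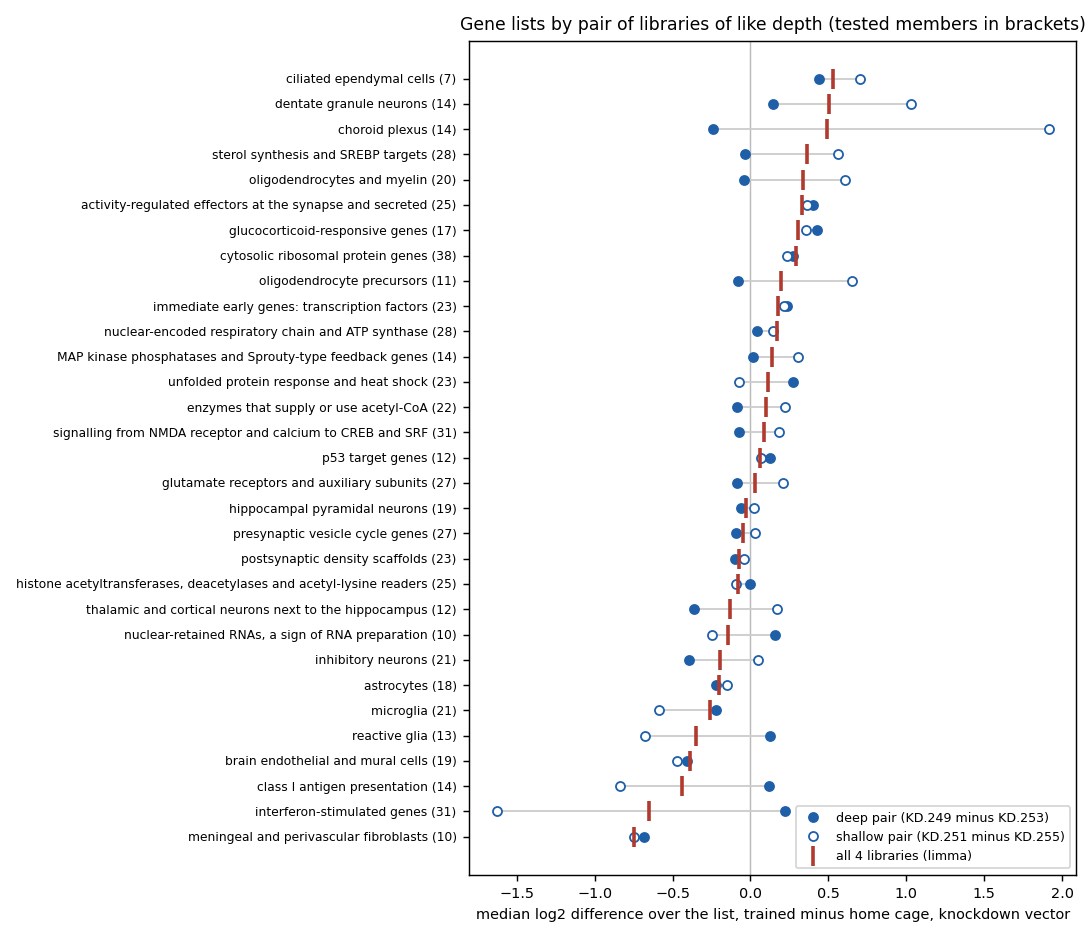
Median log2 difference, trained minus home cage with the knockdown vector (x axis), of 31 gene lists (y axis, tested members in brackets) in the deep pair (filled circles), the shallow pair (open circles) and the fit of all libraries (bars). Activity-regulated effectors (0.40 and 0.36), glucocorticoid-responsive genes (0.43 and 0.36) and endothelial markers (-0.41 and -0.47) gave like values in both pairs, whereas interferon-stimulated genes gave 0.22 and -1.63.

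Several lists differed through library KD.251. Interferon-stimulated genes were lower in 28 of 31 members with a median of -0.65, but their summed level was 9200 in KD.253, 6439 in KD.255 and 10620 in KD.249, and 2213 in KD.251. Ifit3, an antiviral protein with a near copy in Ifit3b, stood at 768 and 622 in the home cage and at 1023 and 268.3 after training. The RNA sensor Ddx58 stood at 277 and 358 against 257 and 31.7. KD.251 alone was low in both genes, while the other 3 knockdown libraries ranged from 622 to 1023 for Ifit3 and from 257 to 358 for Ddx58. Without KD.251 the list's median was 0.44, and in the deep pair 0.22. Antigen presentation genes had a median of -0.44, and 0.58 without KD.251. Here KD.255 was low as well, with a summed level of 2426 against 5149 in KD.253, 5204 in KD.249 and 1295 in KD.251, and B2m, the class I light chain, stood at 2923 and 1166 against 2675 and 638. Reactive glia had a median of -0.35, and 0.47 without KD.251. Control libraries summed to between 711 and 1014 for the interferon list, so KD.251 lay nearer to them than the other knockdown libraries did, as for Acss2.

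Sterol and SREBP target genes were above 0 in 24 of 28 with a median of 0.36, but at -0.08 without KD.251 and -0.03 in the deep pair. Hmgcs1, an early enzyme of sterol synthesis, stood at 291 and 638 against 389 and 903 (0.46, SE 0.46), and Insig1, which holds SREBP in the endoplasmic reticulum, at 70.5 and 46.7 (3 reads) against 52.7 and 185. Oligodendrocyte markers were above 0 in 14 of 20 (median 0.34, with 0.08 without KD.251 and -0.04 in the deep pair). Both trained libraries were higher in 7 and lower in 1, against 16.4% and 14.0% of all tested genes. The myelin gene Mobp was among the 7, at 1655 and 1260 against 2247 and 2109. Sox10, the lineage factor, was the 1 that was lower, at 565 and 482 against 272 and 286 (-0.90, SE 0.38). Choroid plexus markers, here a measure of dissected neighbouring tissue, had a median of 0.49, but -0.24 in the deep pair, where 2 of 14 were higher, and 0.16 without KD.251. Their summed level was 62470 in eGFP.250 and 16220 in eGFP.254, against 784 in eGFP.266 and 288 in eGFP.268, so the control-vector median of 1.34 also rests on uneven libraries. Ttr stood at 341 and 482 against 173 and 1768.

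Ribosomal protein genes were above 0 in 29 of 38, against 54.1% of all tested genes. Both trained libraries were higher in 11 and lower in 1, against 16.4% and 14.0% of all tested genes. The median was 0.29 (0.27 deep, 0.23 shallow, 0.05 with the control vector), but 0.15 without KD.249. Rps4x stood at 207 and 248.8 (16 reads) against 382 and 643 (1.12, SE 0.53), and reads of ribosomal genes can be split with their many pseudogenes. Respiratory chain genes were above 0 in 23 of 28 with a median of 0.17 (0.04 in the deep pair, -0.06 without KD.251), and 0 genes of either list passed. The lists of unfolded protein response and heat shock (16 of 23, median 0.11), p53 targets (8 of 12, 0.06), oligodendrocyte precursors (6 of 11, 0.19), astrocytes (6 of 18, -0.20), ependymal cells (7 of 7, 0.53) and nuclear-retained RNAs (4 of 10, -0.15) had 0 passing genes as well. Without KD.255 the sign turned for precursors (-0.15), p53 targets (-0.0019) and nuclear-retained RNAs (0.06). Ependymal cells, astrocytes and heat shock genes kept their sign in every alternative. Their medians were nearest 0 at 0.16 and -0.11 without KD.249 and at 0.02 without KD.253, in that order. Of 15 T cell genes 1 was tested, and the list summed to 170 and 140 in the home cage and to 184 and 37.5 after training.

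Across all genes the pairs of like depth did not share a pattern. Over the 6989 genes averaging 100 or more, the training differences of the deep and the shallow pair had a Pearson coefficient of 0.04 and a Spearman coefficient of 0.02, and 3531 genes (50.5%) had the same sign. Genes are not independent replicates, and the shallow pair adds counting error (SD of the differences 0.55 against 0.33 in the deep pair). The deep pair's differences had a Pearson coefficient of 0.52 with the training differences of the control vector, which share no library with it, and the shallow pair's had -0.12. The levels of KD.249 and KD.253 had a Spearman coefficient of 0.981 over all tested genes, the highest of any pair of libraries, but over the genes averaging 100 or more it was 0.959, below those of KD.249 with eGFP.266 (0.966), KD.251 with eGFP.268 (0.962) and KD.253 with eGFP.254 (0.960).

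**Figure D5:**
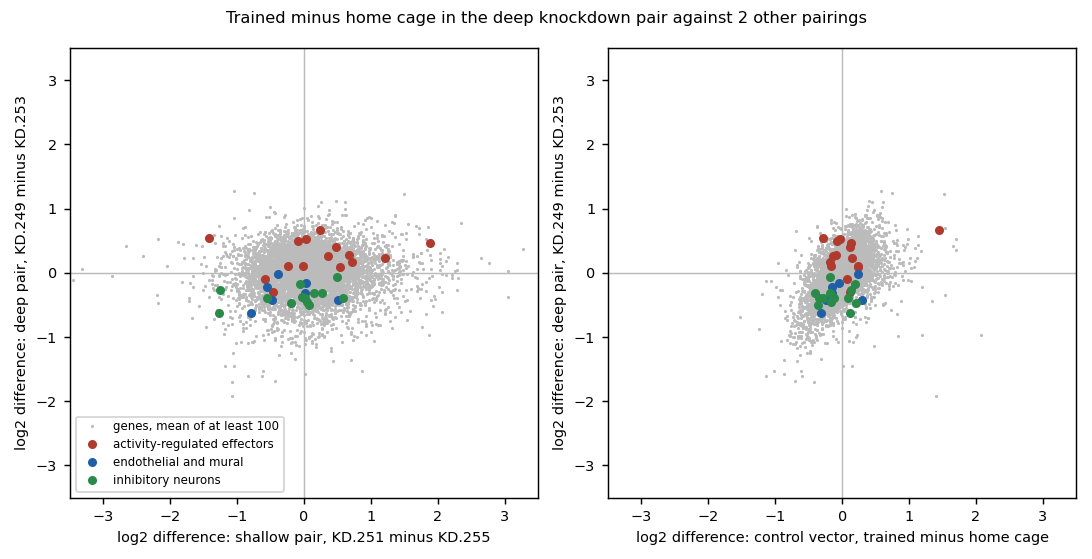
Log2 difference in the deep pair (y axis) against the shallow pair (left) and against the training difference with the control vector (right, x axes), for 6989 genes averaging 100 or more, with 3 lists in colour; 4 and 2 genes lie outside the axes. The left cloud has no slope (Pearson 0.04) and the right one has (0.52), and the effector genes lie mostly above 0 and the inhibitory and endothelial markers below 0 in the deep pair.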

How the data were processed

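Polyadenylated RNA of the dorsal hippocampus was prepared with the ScriptSeq v2 kit and read on a NextSeq 500 instrument, per the labels' protocols. The submitters' processing notes name bcl2fastq 02.14.01.07, STAR 2.3.0, HTSeq 0.6.1, DESeq, bedtools and the build mm10. Gene annotation and strand setting were not given in the sources used here. What the authors deposited was a normalized signal per gene and library. Each deposited value was a whole multiple of the smallest value above 0 of its library (100% of values, relative tolerance 1e-06), so whole reads were recovered by division. The table held 24498 genes and 5 summary entries, which were left out; these held between 16.4% and 20.3% (no gene), 10.6% and 13.8% (not unique) and 2.76% and 7.86% (not aligned) of the reads of a library.

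Testing used limma 3.58.1 (trend over intensity) in R 4.3.3, applied to log2(normalized read count + 1) of the 12681 genes that averaged 10 or more across the 8 libraries; the 4 groups shared 1 estimate of the spread (4 residual and 5.13 prior degrees of freedom). Fold changes on this scale understate those of genes with few reads, except that a 0 in KD.255 can overstate them. edgeR 4.0.16 (quasi-likelihood), DESeq2 1.42.0 and voom were run on the recovered reads. The tests were also run on simulated counts. That simulation held no shifts particular to a library, so it cannot tell how the tests behave under such shifts. The 2 libraries within each group differed beyond sampling noise (chi-square per degree of freedom from 2.08 to 34.0).

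The 33 gene lists were written from textbook knowledge. Libraries, lists and tests were chosen with earlier results of these data known. Named genes were the 10 highest and 10 lowest by limma statistic (mean of at least 100, groups without overlap), 5 each way for the difference between vectors, the most abundant and the highest and lowest members of each list, and 22 activity genes; 177 genes met this rule, and the text names a part of them (some are not reported here). Gene positions are from GENCODE M21 (GRCm38, the same build as mm10), which matched 176 of the 177.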

Additional observations from a re-analysis of the deposited data

How the results depend on the processing

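No paired analysis was possible because the deposited columns carry no replicate number that ties them to the labels. The count of genes passing for training with the knockdown vector was 0 with a pseudocount of 16, other filters, TMM scaling, edgeR, DESeq2, voom, depth as a term, the 4 knockdown libraries alone and both shallow libraries left out, and so was that for the difference between vectors where it could be fitted. Leaving out 1 library at a time gave between 0 and 1242 genes for training and between 0 and 710 for the difference, and KD.253 was the library behind both higher counts. Without it KD.255 stood alone for the home cage, assumed to vary like the other groups, and 745 of the 1242 and 562 of the 710 genes had 0 reads there; edgeR without KD.253, added after this was seen, passed 0. Of the genes named in the text, 17 passed limma only in that setting, among them Egr3 (1.10, adjusted p = 0.0199) and Parm1 (-1.18, adjusted p = 0.0148). The median of immediate early transcription factors ranged from -0.16 to 0.52 over the libraries left out, and the Acss2 ratio from 0.299 to 0.489, with an exact p of 0.0571 without any 1 of the control libraries.

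The sign of the log2 difference of some named genes that did not pass depended on single libraries, and the cause was not tested. Leaving out 1 library at a time gave -0.20 to 0.47 for Fos, -0.23 to 0.58 for Jun, -0.10 to 0.46 for Egr1, -0.72 to 0.91 for Egr2, -0.12 to 0.94 for Egr4, -0.31 to 0.19 for Nr4a1, -0.014 to 0.75 for Nr4a3, -0.35 to 1.58 for Btg2, -0.98 to 0.093 for Nptx2 and -0.27 to 0.14 for Scg2. It gave -0.32 to 0.19 for Dusp6, -0.063 to 0.80 for Glis3, -0.14 to 1.067 for Stxbp6, -1.36 to 0.56 for Ifit3, -1.53 to 0.53 for B2m, -0.14 to 1.067 for Hmgcs1, -0.12 to 1.67 for Insig1, -0.10 to 0.60 for Prox1 and -1.22 to 2.12 for Ttr. Without both shallow libraries the sign turned to 0.019 for Npas4, 0.54 for Nptx2, 0.11 for Scg2, 0.037 for Dusp6, -0.13 for Glis3, -0.038 for Sema5a, -0.28 for Stxbp6, 0.033 for Syne2, 0.41 for Ifit3, -0.41 for Insig1 and -0.97 for Ttr. With voom it was 0.17 for Nptx2, 0.062 for Dusp6 and -0.00793 for Glis3, and Dusp6 stood at 0.011 with edgeR and 0.00052 with DESeq2.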
